A study of Mus musculus with 3 samples.

Results

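Matrix metalloproteinases (MMPs), their tissue inhibitors (TIMPs), the membrane-anchored ADAM proteases and the secreted ADAMTS proteases were read in dermal fibroblast progenitors of the mouse embryo. The members were all probes whose gene symbol in the deposited table began with Mmp, Timp or Adam followed by a digit, or with Adamts. The rule gave 100 of 25697 probes and 68 of 18120 gene symbols: 22 MMPs, 4 TIMPs, 28 ADAMs and 14 ADAMTS proteases. The RNA came from the dorsal dermis of embryos at day 12.5 with the genotype Engrailed1Cre/+;R26R/+, that is, with Cre recombinase at the Engrailed1 locus and a Cre reporter at Rosa26. Cells were cut out by laser from 5 embryos, their RNA was pooled, and the 1 pool was read on 3 Illumina MouseRef-8 bead arrays. The arrays are technical replicates, so an SD below is the spread between arrays and holds no difference between embryos. The series has 1 group, and no contrast between conditions could be made.

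MMPs are zinc-dependent enzymes that cut collagens and other matrix proteins after their propeptide is removed, and TIMPs bind and block their active site. ADAMs mostly release ligands and receptors from the cell surface, and several members work only in sperm or bind partners without cutting. ADAMTS proteases trim procollagen and cut large proteoglycans such as versican. In embryonic skin these enzymes are known to act as the loose mesenchymal matrix is remodelled into dermis.

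A probe was called detected where its detection p, the rank of its signal against negative control beads, lay under 0.01 on all 3 arrays. Of the member probes 26 of 100 (26%) were detected, against 37.7% of all probes on the array. By gene, with 1 detected probe sufficing, 23 of 68 members (33.8%) were detected, against 43.4% of all genes. The 23 genes were 9 of 22 MMPs, 3 of 4 TIMPs, 4 of 28 ADAMs and 7 of 14 ADAMTS proteases. These counts, and those of the smaller subgroups below, are to be read beside the 43.4% of all genes. Most subgroups hold few genes, and no subgroup was tested against that share. Of the member probes 31 passed on array 1, 27 on array 2 and 30 on array 3, where 44.9%, 39% and 41.6% of all probes passed. The 68 genes include 16 ADAMs known mainly from testis, sperm or epididymis, of which 0 were detected. All 23 detected genes came from the remaining members, so the low share is not a trait of every subgroup. The share of members called stayed under that of the array at other thresholds. With 0.05 as the threshold 31 probes and 27 genes were called, against 42.6% of all probes and 48.3% of all genes, and at 0.001 the counts were 23 probes and 20 genes, against 33.9% and 39.4%. With 2 passing arrays sufficing there were 30 probes and 26 genes, against 41.8% and 47.4%, and with 1 there were 32 and 27, against 46% and 51.5%. With all probes of a gene required, 19 genes were called, against 32.4% of all genes. Among the reported calls 23 of the 26 detected probes had a detection p of 0 on all 3 arrays, and 68 of the 100 passed on no array. Signals are given as the authors' normalized signal in arbitrary units for arrays 1, 2 and 3, with mean ± SD over the 3 arrays. The lowest signals that passed were 23.1, 44.3 and 31.2 on arrays 1, 2 and 3. Because each probe binds with its own efficiency, the level of 1 probe says nothing about the level of another.

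Both gelatinase genes were detected. Mmp2, which encodes gelatinase A and cuts denatured collagen and basement membrane collagen, read 5820.3, 5699.9 and 5989 on the 3 arrays (5836 ± 145). Mmp9, which encodes gelatinase B, read 106, 129 and 109 (115 ± 12.6). Both probes had a detection p of 0 on every array.

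The membrane-type MMPs were detected at 4 of 5 genes, beside 43.4% of all genes. Mmp14, whose product MT1-MMP cuts fibrillar collagen at the cell surface and activates the proform of gelatinase A, read 2012, 2035 and 1948 (1998 ± 45.1). Mmp15, which encodes MT2-MMP, read 229, 261 and 244 (245 ± 15.6). Both had a detection p of 0 on every array. Mmp17, whose product is held in the membrane by a lipid anchor, read 263, 334 and 254 (284 ± 44.1), with array 2 above the other two. Mmp16, which encodes MT3-MMP, read 102, 112 and 121 (112 ± 9.33) by 1 of its 2 probes, while the second probe lay at background with -1.98, 21.0 and -2.88. Mmp24, whose product MT5-MMP is best known from the nervous system, passed on 2 of 3 arrays. It read 41.1, 35.9 and 42.2 (39.7 ± 3.34), and only array 2, with a detection p of 0.024, kept it from the call.

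Among the stromelysins 1 of 3 genes was detected. Mmp11, which encodes stromelysin-3, an MMP of mesenchymal cells that furin activates inside the cell, read 901, 892 and 864 (886 ± 19.0). The 3 probes of Mmp3 had means between -3.90 and -1.62, and Mmp10 averaged 7.27 ± 12.4, so neither stromelysin 1 nor stromelysin 2 was read above background. The matrilysin gene Mmp7 (-13.5 ± 6.94) and the macrophage metalloelastase gene Mmp12 (8.97 ± 8.40) were at background as well.

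Of the 4 collagenase genes only Mmp1a was detected, and it lay at the edge of detection. Its brighter probe read 43.9, 44.7 and 43.2 (43.9 ± 0.786), with a detection p of 0.0088 on array 2. Its second probe read 27.0, -14.4 and 30.8 and passed on array 1 only. The neighbouring copy Mmp1b read -9.93, -3.64 and 9.16. The 2 copies are close paralogs, and whether the Mmp1a probe also binds Mmp1b RNA was not tested. Mmp8, the neutrophil collagenase, averaged -7.55 ± 1.45. Mmp13, the collagenase of bone and cartilage, had 3 probes with means between -0.860 and 10.7, none of which passed on any array.

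The remaining MMPs were detected at 1 of 6 genes. Mmp23, which encodes an MMP without the usual hemopexin domain, read 244, 233 and 276 (251 ± 21.9). Mmp28, which encodes epilysin, passed on 2 arrays, reading 33.0, 38.8 and 53.8 by its brighter probe. Mmp19, Mmp20 (the enamel protease), Mmp21 and Mmp27 passed on no array, with means between -4.90 and 8.87.

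**Figure D1:**
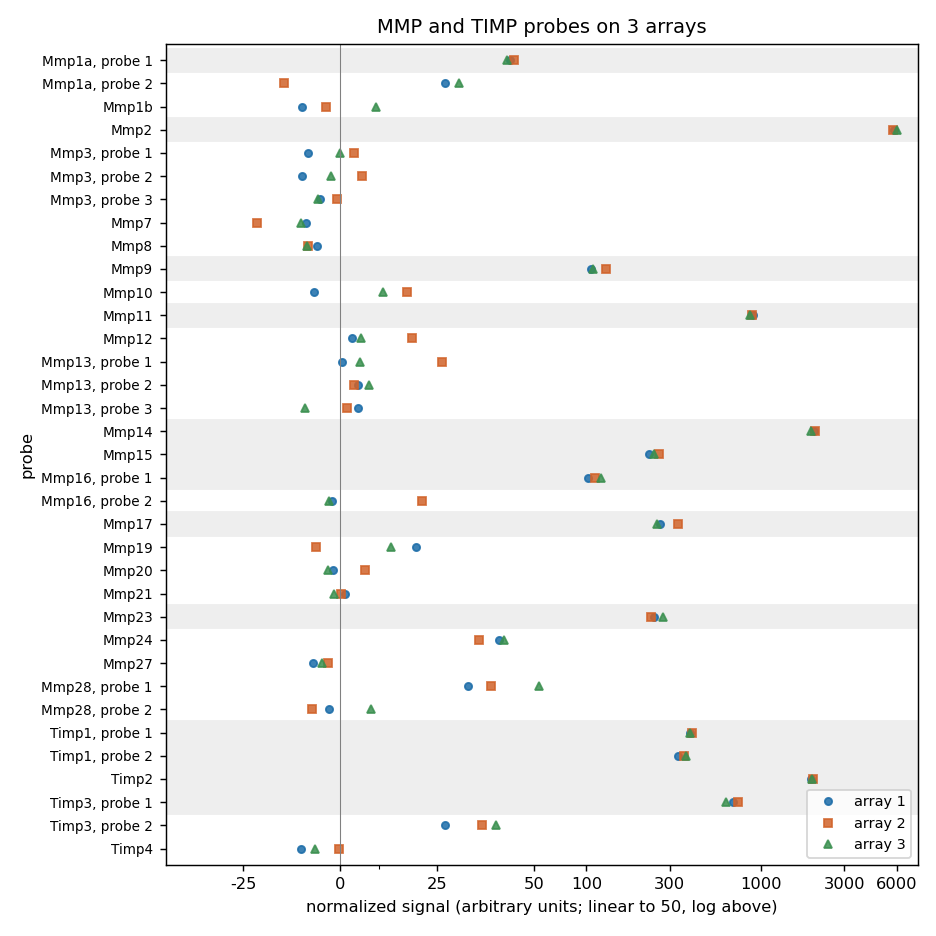
Normalized signal of every MMP and TIMP probe (x axis, arbitrary units, linear to 50 and logarithmic above) on arrays 1, 2 and 3, 1 probe per row. Shaded rows passed on all 3 arrays: the points of Mmp2, Mmp14, Mmp11 and Timp2 nearly coincide, while probes that passed on no array scatter around 0. The unshaded probes of Mmp24, Mmp28 (brighter probe) and Timp3 (dimmer probe) passed on 2 arrays and lie above 0 on all 3.

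The MMP genes that stand side by side in the genome were mostly undetected. By the order of protein-coding genes in RefSeq (GRCm38.p6), 10 MMP genes follow each other on chromosome 9 without another gene between them, in the order Mmp13, Mmp12, Mmp1b, Mmp3, Mmp1a, Mmp10, Mmp8, Mmp27, Mmp20 and Mmp7. In that row 1 of 10 genes was detected, the marginal Mmp1a, while 8 of the 12 MMP genes elsewhere were detected, beside 43.4% of all genes. At a detection p under 0.001 Mmp1a lost its call and the row held no detected gene. Of 6 further pairs of members that stand side by side, 4 were undetected at both genes, namely Adamts1 with Adamts5, Adam3 with Adam5, Adam5 with Adam32 and Adam24 with Adam25. In the other 2 pairs Adam9 was detected and its neighbour Adam32 was not, and Adamts15 was detected and its neighbour Adamts8 was not.

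The sequences just before the transcription start of 6 of these genes are shown because 3 of them stand in the row on chromosome 9 and 3 do not. They are the 250 bases before the start from RefSeq, build GRCm38.p6, written 5′ to 3′. Capitals mark a GC box (GGGCGG, or CCGCCC on the other strand), a TATA box (TATAAA, or TTTATA on the other strand) or an AP-1 site (TGANTCA, which reads the same on both strands), and matches that touch each other run together.
Mmp14, chr14:54431348-54431597, strand +: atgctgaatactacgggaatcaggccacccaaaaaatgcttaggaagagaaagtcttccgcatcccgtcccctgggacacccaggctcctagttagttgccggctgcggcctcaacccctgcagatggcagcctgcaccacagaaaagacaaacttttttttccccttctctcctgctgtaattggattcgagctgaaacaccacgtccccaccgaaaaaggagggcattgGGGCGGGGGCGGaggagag
Mmp11, chr10:75932503-75932752, strand -: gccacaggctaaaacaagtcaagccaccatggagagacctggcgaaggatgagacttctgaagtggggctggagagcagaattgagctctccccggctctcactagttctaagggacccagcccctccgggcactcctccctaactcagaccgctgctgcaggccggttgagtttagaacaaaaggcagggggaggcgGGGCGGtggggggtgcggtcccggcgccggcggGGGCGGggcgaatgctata
Timp2, chr11:118355412-118355661, strand -: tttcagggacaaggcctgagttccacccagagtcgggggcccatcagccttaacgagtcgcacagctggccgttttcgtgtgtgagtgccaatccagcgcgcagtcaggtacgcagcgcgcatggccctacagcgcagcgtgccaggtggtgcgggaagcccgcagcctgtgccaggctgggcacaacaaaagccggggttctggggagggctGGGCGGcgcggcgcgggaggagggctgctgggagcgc
Mmp1a, chr9:7463891-7464140, strand +: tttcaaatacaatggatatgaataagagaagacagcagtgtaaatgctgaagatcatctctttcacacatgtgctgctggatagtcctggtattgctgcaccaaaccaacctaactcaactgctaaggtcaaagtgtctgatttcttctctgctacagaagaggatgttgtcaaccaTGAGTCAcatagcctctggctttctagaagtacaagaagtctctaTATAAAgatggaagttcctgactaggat
Mmp3, chr9:7445572-7445821, strand +: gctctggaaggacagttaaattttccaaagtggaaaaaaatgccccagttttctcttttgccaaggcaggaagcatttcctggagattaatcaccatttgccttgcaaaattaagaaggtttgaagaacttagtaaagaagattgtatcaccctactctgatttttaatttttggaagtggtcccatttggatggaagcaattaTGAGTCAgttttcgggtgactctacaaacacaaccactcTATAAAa
Mmp13, chr9:7272264-7272513, strand +: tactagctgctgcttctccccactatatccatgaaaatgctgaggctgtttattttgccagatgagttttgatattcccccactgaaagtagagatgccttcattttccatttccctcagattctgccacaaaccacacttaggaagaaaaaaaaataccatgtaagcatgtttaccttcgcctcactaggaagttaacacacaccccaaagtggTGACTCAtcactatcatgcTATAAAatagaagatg

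Mmp14, Mmp11 and Timp2, all detected, have GC boxes in this window and neither of the other motifs. Mmp1a, Mmp3 and Mmp13, from the row on chromosome 9, each have a TATA box close to the start, an AP-1 site before it and no GC box. A start region was used for 39 of the 68 members, 13 of them detected. Mmp2 and Mmp9 are among those without one. Regions on chromosome 18, where Adamts19 lies, were left out throughout. A GC box stood before 10 of the 13 detected members (76.9%) and 6 of the 26 undetected ones (23.1%). Over all genes on the array with a start region, the shares were 67.3% of 4210 detected genes and 36.4% of 5255 undetected genes. In both, the share was higher among detected genes. A TATA box stood before 1 of 13 detected and 9 of 26 undetected members, against 8.24% and 18.1% of detected and undetected genes on the array. An AP-1 site stood before 2 of 13 detected and 9 of 26 undetected members, against 5.30% and 9.15%. The row on chromosome 9 supplied most of these: 7 of its 10 genes had a TATA box, 8 had an AP-1 site and 0 had a GC box, while of 7 MMP genes elsewhere 1 had a TATA box, 0 had an AP-1 site and 5 had a GC box. Among all 32851 start regions used, counted per region and not per gene, 12.4% held a TATA box, 6.75% an AP-1 site and 32.7% a GC box. These are matches of letters, and no binding was measured.

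**Figure D2:**
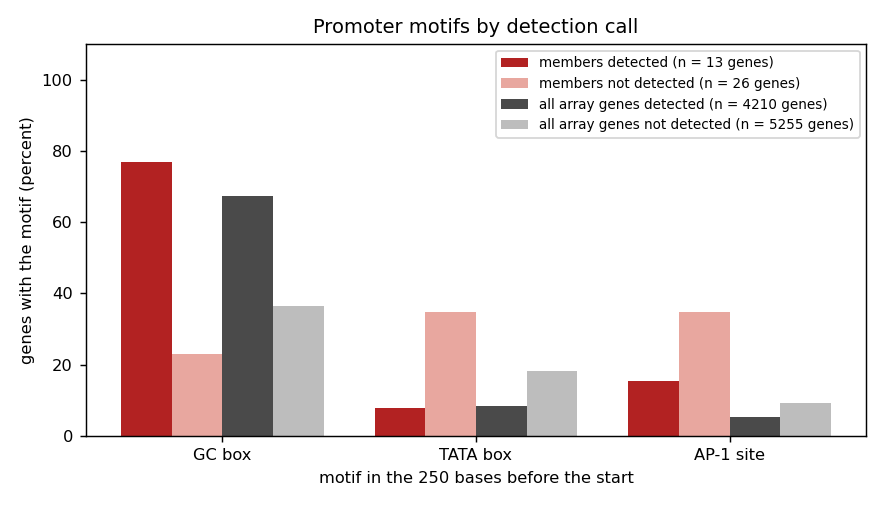
Share of genes (y axis, percent) with a GC box, TATA box or AP-1 site in the 250 bases before the start, for member genes detected and not detected and for all array genes detected and not detected. GC boxes stood before 76.9% of detected and 23.1% of undetected members, and before 67.3% and 36.4% of detected and undetected array genes.

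Of the TIMP genes 3 of 4 were detected, beside 43.4% of all genes. Timp2, whose product blocks MMPs and also bridges MT1-MMP to the proform of gelatinase A, read 1941, 1977 and 1970.3 (1963 ± 19.0). Its SD of log2 signal between arrays, 0.014, was the lowest among the 26 detected member probes under the authors' scaling. After quantile normalization of the non-normalized intensity, which keeps the background, it was 0.037, above Timp1 at 0.016 and Mmp1a at 0.017 among others. The background narrows the log2 spread of dim probes such as that of Mmp1a. Timp1, a broad MMP inhibitor, was read by both of its probes, at 392, 404 and 390.2 (395 ± 7.57) and at 336, 361 and 370 (356 ± 17.5). The 2 Timp1 probes were above background on every array. Timp3, which binds to the matrix and also blocks ADAM17 and several ADAMTS proteases, read 689.6, 737 and 635 (687 ± 51.2) by 1 of 2 probes. The second Timp3 probe read 27.1, 36.6 and 40.1 and failed the threshold on array 2 alone. Timp4, an inhibitor best known from heart, read -10.2, -0.268 and -6.41 (-5.61 ± 4.99). The products of Mmp14, Mmp2 and Timp2 are the known partners in the activation of gelatinase A, and all 3 genes were detected.

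Of 9 ADAMs with an active protease in body tissues 4 were detected (44.4%), which is near the 43.4% of all genes. The count was 0 of 16 for ADAMs known mainly from testis, sperm or epididymis. It was 0 of 3 for neural ADAMs without protease activity, not counting a detected probe filed under a synonym of Adam23 that is described with them. Adam17, the sheddase of tumour necrosis factor and epidermal growth factor receptor ligands, read 527, 491 and 537 (518 ± 24.5). Adam19, which encodes meltrin beta, read 706, 672 and 696 (691 ± 17.4). Both probes kept their values within a narrow range across the arrays. Adam9, which encodes meltrin gamma, read 385, 404 and 358 (382 ± 23.0). Adam15 read 166, 189 and 168 (174 ± 12.9) by 1 of 2 probes, and its second probe lay at background with 5.03, -10.8 and 3.20.

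Adam10, the main sheddase of Notch receptors and cadherins, was not read above background. Its single probe gave -3.13, 6.35 and 2.39 (1.87 ± 4.76). The file lists no transcript definition for that probe. Of the member probes 16 of 51 without a definition and 10 of 49 with one were detected, beside 37.3% and 37.9% of all such probes. Adam12, which encodes meltrin alpha, read 5.81, 8.40 and 2.06 by 1 probe. Adam33 averaged -3.18 ± 4.11, Adam8 had a brighter probe at 12.3 ± 4.69, and the 4 probes of Adam28 had means between -13.2 and 2.39. None of these 5 genes passed on any array. A probe at background does not show that a transcript was absent.

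The neural members Adam11, Adam22 and Adam23 had 8 probes under their own names, all below threshold on every array. The brightest, an Adam22 probe, read 18.3, 38.6 and 27.2, and it was called when the threshold was a detection p under 0.05. For Adam23 the 2 named probes averaged 2.66 ± 5.07 and 0.839 ± 5.29. A further probe, filed under AW046396, a symbol that RefSeq lists as a synonym of Adam23 alone, read 437, 455 and 476 (456 ± 19.6). That probe falls outside the rule on symbols and is in none of the counts, and which transcript it binds was not tested. Other family relatives outside the rule, namely Adamts3, Adamtsl2, Adamtsl4 and Adamtsl5 under older symbols, passed on no array and had means between 2.84 and 10.2.

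The testis, sperm and epididymis members were Adam1b, Adam2, Adam3, Adam4, Adam4b, Adam5, Adam6, Adam7, Adam21, Adam24, Adam25, Adam26a, Adam29, Adam30, Adam32 and Adam39. Over their 23 probes that passed on no array, single values ran from -22.2 to 33.9 and means from -12.2 to 16.5. The only pass was 1 of 3 Adam4 probes on array 3, where it read 33.3 after 21.6 on array 1 and -1.53 on array 2. No gene of the 16 was detected, against 43.4% of all genes. Over all 68 member probes that passed on no array the SD over probes was 8.15, 13.8 and 9.52 on arrays 1, 2 and 3, against 8.54, 15.0 and 9.53 over the 13879 such probes of the array.

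**Figure D3:**
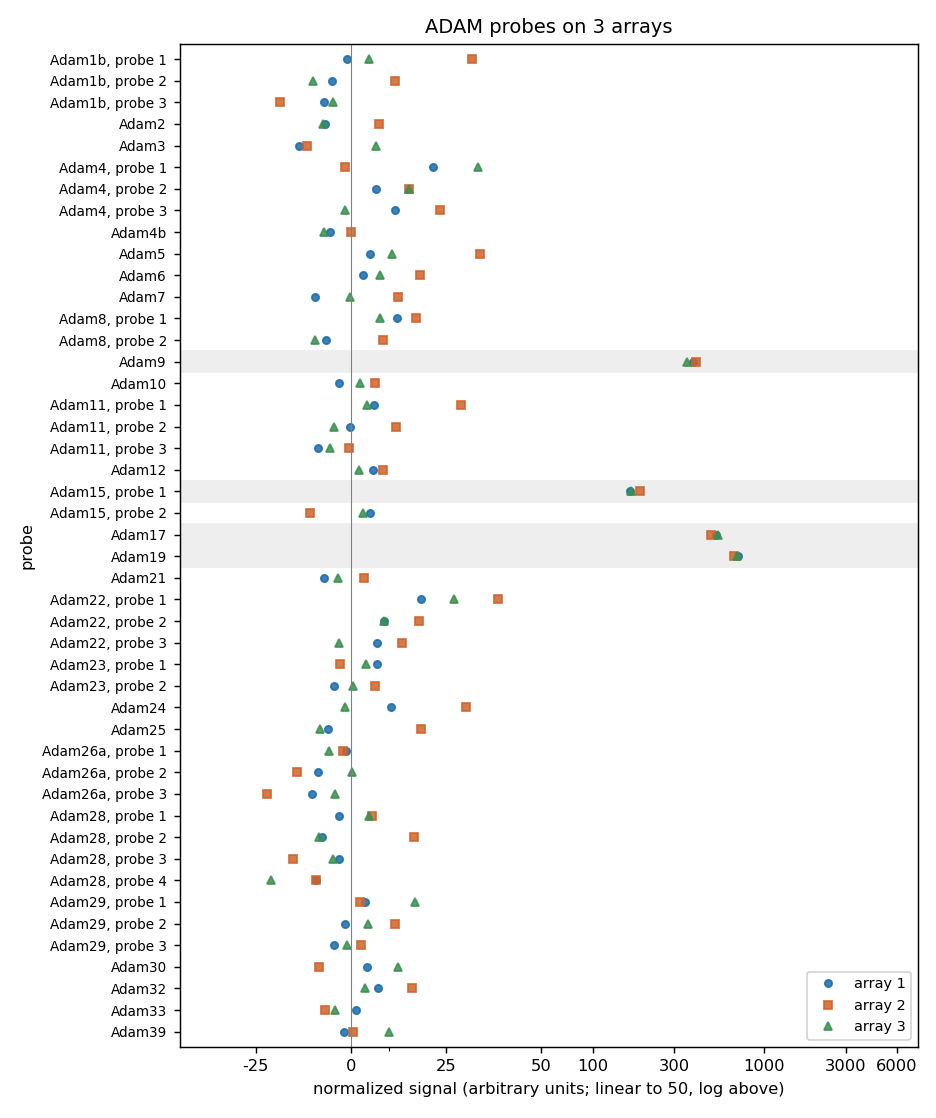
Normalized signal of every ADAM probe (x axis, arbitrary units, linear to 50 and logarithmic above) on arrays 1, 2 and 3, 1 probe per row. The shaded rows are the only probes that passed on all 3 arrays, those of Adam9, Adam15, Adam17 and Adam19.

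Among the ADAMTS proteases the procollagen N-proteinase gene Adamts2, whose product removes the amino-terminal propeptide of fibrillar collagens, was read by all 3 of its probes. The brightest read 222, 269.97 and 241 (244 ± 24.2), another 114, 92.8 and 96.2 (101 ± 11.6) and the third 57.6, 65.1 and 86.3 (69.7 ± 14.8). No array was highest for all 3 probes.

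Of 6 proteoglycan-cutting ADAMTS genes 2 were detected. Adamts4, which encodes aggrecanase 1, read 229, 155 and 198 (194 ± 37.2), with array 2 lowest. Adamts15 read 129, 98.3 and 104 (110.5 ± 16.6). Adamts1, whose product cuts versican, passed on arrays 1 and 2 but not on array 3, with 37.7, 46.3 and 24.9 by its brighter probe. The detection p on array 3 was 0.015, the closest miss among the members that passed on 2 arrays. Adamts5, which encodes aggrecanase 2, read 20.0, 13.0 and 24.8 and passed on no array, and neither did Adamts8 (17.1 ± 7.03). The 2 probes of Adamts20, the gene altered in belted mice, averaged -0.284 ± 3.35 and -0.362 ± 5.40.

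The other ADAMTS genes were detected at 4 of 7. Adamts7, whose product cuts cartilage oligomeric matrix protein, read 196, 200.5 and 194 (197 ± 3.31). Adamts19 read 181, 169.8 and 181 (177 ± 6.39). Both varied little between arrays, while Adamts16 read 83.5, 52.6 and 74.5 (70.2 ± 15.9) with array 2 lowest. Adamts18 read 58.0, 60.2 and 73.2 (63.8 ± 8.20). Adamts16 and Adamts18 passed on array 2 with a detection p of 0.0050 and 0.0038, and both lost their call at a detection p under 0.001. Adamts12 (-6.96 ± 7.52), Adamts13 (12.8 ± 19.5), which encodes the protease of von Willebrand factor, and Adamts17 (5.63 ± 11.5) passed on no array.

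**Figure D4:**
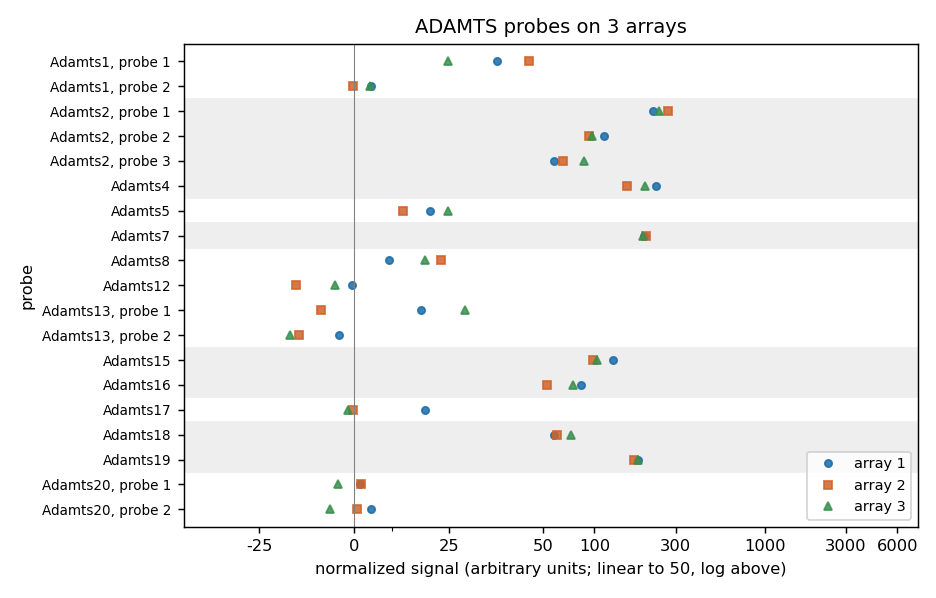
Normalized signal of every ADAMTS probe (x axis, arbitrary units, linear to 50 and logarithmic above) on arrays 1, 2 and 3, 1 probe per row. Shaded rows passed on all 3 arrays; all 3 Adamts2 probes did, and the brighter Adamts1 probe missed on array 3.

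Several members had more than 1 probe. Among these 21 genes both probes of Timp1 and all of Adamts2 were detected, none was at 15 genes, and at 4 genes (Mmp1a, Mmp16, Timp3 and Adam15) 1 probe was detected and the other was not. Such mixed calls were found at 4 of 21 members and at 40.7% of the 4909 genes with several probes on the array. Which transcripts the 2 probes of a mixed gene bind was not analysed here.

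The spread between arrays of the detected member probes was small. The median SD of log2 signal was 0.098 over the 26 probes, with a range of 0.014 to 0.35, and 0.11 over all 9693 detected probes. It narrowed with brightness. At a mean signal under 100 the median was 0.24 for 4 member probes and 0.22 for all such probes, from 100 to 300 it was 0.13 for 12 member probes and 0.13 for all, and above 300 it was 0.036 for 10 member probes and 0.077 for all. The widest member was Adamts16 at 0.35, followed by the dimmest Adamts2 probe at 0.30 and Adamts4 at 0.28. This order changed with the arrays and the processing, which were compared for the brightest detected probe of each gene only. Without array 2 Adamts16 was at 0.12, under Adamts18 at 0.24 and Adamts15 at 0.22. The dimmest Adamts2 probe, not in that comparison, read 57.6 and 86.3 on arrays 1 and 3. After quantile normalization of the non-normalized intensity Adamts16 was at 0.17, under Adamts4 at 0.19. That intensity still holds the background, which narrows the log2 spread of dim probes, so the scaling alone was not compared. The authors scaled array 2 by a slope of 2.07, where arrays 1 and 3 had 0.672 and 0.699, and the probes at background were spread most widely on that array, as given above.

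**Figure D5:**
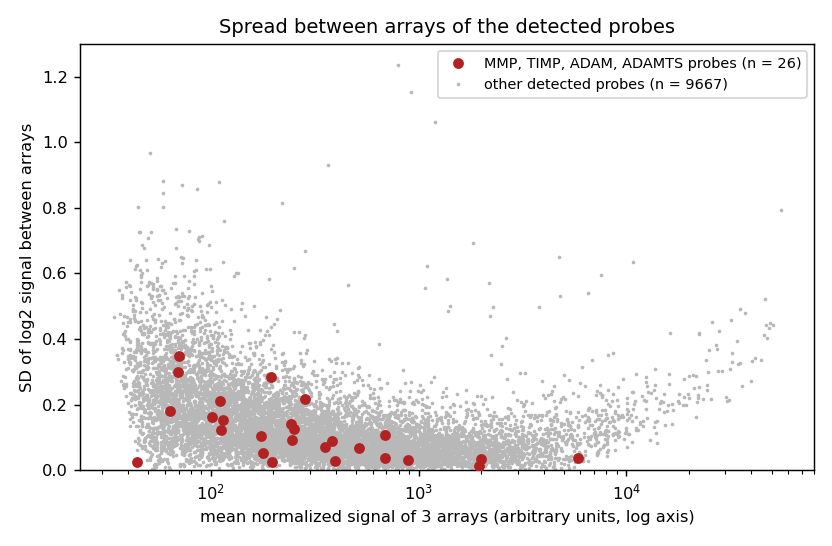
SD of log2 signal between the 3 arrays (y axis) against mean normalized signal (x axis, arbitrary units, logarithmic) for the 26 detected member probes and the 9667 other detected probes. Member probes lie between 0.014 and 0.35 within the cloud of the other probes; for those above a signal of 300 the median is 0.036, against 0.077 for all detected probes above 300, and the Timp3 probe is the widest of them at 0.11.

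Genes that activate, restrain or assist these proteases were detected at 12 of 24 measured, a share near the 43.4% of all genes. Furin, the convertase that removes the propeptide of membrane-type MMPs, ADAMs and ADAMTS proteases, read 678, 693 and 752 (708 ± 39.3) by 1 of 3 probes. Pcsk7, a related convertase, averaged 183 ± 13.8. Reck, a membrane-anchored inhibitor of Mmp2, Mmp9 and Mmp14 products, read 306, 274 and 267 (282 ± 20.6). Plau, the urokinase gene, averaged 194 ± 7.57, while its receptor gene Plaur (11.8 ± 0.396) and Plg, which encodes plasminogen (7.29 ± 5.34), were not detected.

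Partners of the ADAM sheddases were read in part. Rhbdf1, which encodes iRhom1, a factor for maturation and transport of ADAM17, averaged 898 ± 108, and its relative Rhbdf2 (5.52 ± 2.00) was not detected. The tetraspanin genes Tspan14 (1475 ± 122) and Tspan17 (303 ± 26.7, by 1 of 3 probes), whose products escort ADAM10, were detected, although the Adam10 probe itself was not. Tspan5 (8.97 ± 8.22), Tspan10 (-12.6 ± 9.25) and Tspan33 (34.8 ± 5.23) were not called. Also detected were Lrp1, an uptake receptor for protease and inhibitor complexes (142 ± 34.0), and the procollagen C-proteinase enhancers Pcolce (330.1 ± 19.9) and Pcolce2 (104 ± 22.5, by 1 of 2 probes). The testican gene Spock3 (59.9 ± 12.0) and Sfrp1 (646 ± 57.0), whose product is known to inhibit ADAM10, were detected too. Not called besides those named were Plat, Bsg, Tfpi2, Spock1, Spock2 and Papln, with means from -13.9 to 23.8.

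Of 6 astacin proteases, a related family, 1 was called, beside 43.4% of all genes. Bmp1, the procollagen C-proteinase gene, was detected at 1613 ± 145 by 3 of 4 probes. Tll1 (0.285 ± 6.55), Tll2 (14.6 ± 7.70), Mep1a (12.8 ± 17.5), Mep1b (16.2 ± 14.8) and Astl were not. Matrix substrates were detected at 16 of 18, against 43.4% of all genes. They included Vcan at 192 ± 14.2, Acan at 130.3 ± 17.0, Ncan at 132 ± 28.9 and Col1a1 at 209 ± 14.2. Bcan (8.48 ± 11.9) and Comp (31.1 ± 14.1) were not detected. Genes for shed ligands and receptors were detected at 9 of 19, again near the share of all genes, including Notch1 (481 ± 14.3), Notch3 (397 ± 19.5), Jag1 (268 ± 33.7) and Hbegf (74.0 ± 6.20), while Notch2 (5.43 ± 12.3), Dll1 (39.1 ± 0.712), Areg (4.75 ± 5.35) and Tgfa (3.06 ± 3.21) were not called.

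The label of the tissue was checked against markers of dermal fibroblast progenitors, of which 10 of 12 were detected. Twist1 was at 2723 ± 146, Twist2 at 2827 ± 181, Pdgfra at 4106 ± 158 and Prrx1, by 3 of 4 probes, at 1107 ± 50.2. En1, the gene of the Cre locus, passed closer to the lowest passing signals, with 47.9, 53.3 and 38.6 on the 3 arrays. Tbx15 and Dpt were not detected. Markers of other cell types were also detected, and their counts are to be read beside the 43.4% of all genes. The count was 6 of 7 for epidermis, with Krt5 (72.2 ± 8.97) and Krt14 (1313 ± 58.6), not Perp. It was 6 of 8 for endothelium, with Pecam1 (220 ± 47.2) and Cdh5 (82.3 ± 7.63), not Kdr or Tie1. Macrophage markers were detected at 7 of 8, with Csf1r (164 ± 8.73, 1 of 2 probes) and Adgre1 (387 ± 17.2, 2 of 3 probes), not Ptprc. Skeletal muscle markers were detected at 5 of 7, with Myog (139 ± 21.4, 1 of 2 probes) and Actc1 (3236 ± 151), not Myod1 or Myf5. The count was 5 of 8 for cartilage, with Sox9 (456 ± 18.2) and Col2a1 (2350 ± 101), not Col9a1. Bone and osteoclast markers were detected at 2 of 5, namely Sp7 (1149 ± 20.1) and Ctsk (930 ± 30.6), not Runx2 or Acp5. Erythroid markers were detected at 6 of 8, with Hba-x (3797 ± 167) and Alas2 (911 ± 65.7), not Epor or Gata1. Of genes known from neurons and glia, Stmn2 (997 ± 26.7), Nefm (263 ± 27.0), Elavl4 (113 ± 7.71, by 1 of 3 probes) and Fabp7 (125 ± 31.4) were detected. Tubb3 (12.0 ± 7.86) was not. Which of these cells carried a given protease transcript was not tested, and in 1 pooled RNA fewer cells of a type and less RNA per cell cannot be told apart.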

How the data were processed

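Bead intensity was deposited before and after the authors' normalization, in both cases with a detection p-value for each probe and array, per the file headers. A straight line per array turned the first intensity into the second (largest residual 0.0152). For the scanner software and the normalization method, names are not given in the sources used here. RNA was extracted with Trizol and RNeasy and labelled with a MessageAmp kit, per the labels' protocols. The series' own value table did not differ from the normalized one.

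Members were the probes matching the symbol pattern; the brightest probe by mean over the arrays gave a gene its value. Counts used a detection p under 0.01 on all 3 arrays. Of the 68 member symbols 66 were RefSeq symbols (GRCm38.p6). The number of arrays limits the precision, and with 1 group no fitted model or test was made. Every member is named. Of the gene lists, all detected activator genes were eligible to be named. Of the other lists up to the first 4 detected and 4 undetected genes were eligible, in list order. Fewer are named for other cell types, and En1 is named in addition because it is the gene of the Cre locus. The count of a further marker list is not reported here. The members and lists were chosen with earlier results of these data known. Procedures were tested on simulated data with Python 3.11.15, pandas 2.3.3 and numpy 2.4.6. The alternatives were other detection thresholds, fewer arrays, every probe required, other normalizations and each array left out.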

Additional observations from a re-analysis of the deposited data

How the results depend on the processing

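Across the alternatives the number of detected member genes ran from 19, with all probes of a gene required, to 27, at a detection p under 0.05 or with 1 passing array sufficient, against 23 as reported, and stayed within 1.5 times of it. Leaving out 1 array gave 23 to 25 genes and 26 to 29 probes. All 23 genes remained when the threshold was 0.05, when fewer arrays had to pass and when any 1 array was left out. At a detection p under 0.001 the genes Mmp1a, Adamts16 and Adamts18 were lost, and with every probe required Mmp1a, Mmp16, Timp3 and Adam15 were. Mmp24, Mmp28 and Adamts1 were gained when 2 arrays sufficed, Adam22 at 0.05 and Adam4 when 1 array sufficed.

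The median SD of log2 signal, 0.098 as reported, was 0.666 on the non-normalized intensity, where the arrays differ in scale. It was 0.0813 after quantile normalization of that intensity, which keeps the background and so narrows the log2 spread of dim probes. Over all member probes above 0 on every array, detected or not, it was 0.210. It was 0.0624 to 0.0744 with 1 array left out. After quantile normalization, shifted to the authors' median, the mean signal moved by more than its SD at 18 detected genes and not at 5. Mmp2 went from 5836 to 6492, Mmp14 from 1998 to 2245 and Adam17 from 518 to 590. The shift matched the median but not the scale of the authors' signal. These moves therefore cannot tell a change of unit from a dependence of single genes on the normalization. Without the shift, the SD of log2 signal moved by more than 0.098 at 2 genes and not at 21. The 2 were Mmp2, from 0.036 to 0.140, and Adamts16, from 0.35 to 0.17. Signals near the lowest passing value on each array limit what can be called. No paired analysis was possible because the series has 1 group.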
